A study of Homo sapiens with 8 samples.

Results

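The 45 genes described here encode the machinery that makes ribosomes in the nucleolus. The proteins are factors of RNA polymerase I transcription, abundant nucleolar proteins, and assembly factors of the small and large ribosomal subunits. Also included are core and associated proteins of the box C/D and box H/ACA small nucleolar ribonucleoproteins (snoRNPs). The 45 genes were chosen by symbol with earlier results of these data known, so their counts are a description and not an independent test. All 45 were found among the 21059 genes of the table. Their transcripts were counted by RNA sequencing of MDA-MB-157, an established line of breast cancer cells labelled negative for the estrogen receptor (ER). The cells were conditioned in low glucose medium and then cultured for 48 h in serum-free medium holding glucose at 5 mM (low glucose, the control, 4 libraries) or at 25 mM (high glucose, the model of hyperglycemia, 4 libraries). The comparison asks how transcription in these cells changes when glucose is raised. None of the 8 libraries is an osmotic control, so glucose and osmolarity cannot be told apart, all libraries come from the same line, and nothing says whether the replicates were separate experiments, so the p-values measure the spread between these flasks only.

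As background, ribosomal RNA is transcribed by RNA polymerase I as a long precursor. The precursor is folded, cleaved and modified while ribosomal proteins bind to it. Box C/D snoRNPs guide 2'-O-methylation and box H/ACA snoRNPs guide pseudouridylation of the precursor, and some of them are needed for its cleavage. The small subunit processome assembles on the growing transcript, and a separate set of helicases, GTPases and scaffold proteins builds the large subunit. The pathway consumes much of the energy of a dividing cell, and in tumors it is often raised together with growth signals and the transcription factor MYC.

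Values are CPM, read counts that the authors scaled to the depth of each library with edgeR. The scaling used TMM normalization factors, which also adjust for differences in composition between libraries. By estimate each library held 9721640 to 12482500 reads, and 3 reads corresponded to 0.212 to 0.267 CPM. The line's label was met by ESR1, which encodes the estrogen receptor and reached at most 0.170 CPM in any library. Of the other receptor genes examined, PGR lay between 4.33 and 5.955 CPM. ERBB2 was at 63.6 ± 1.29 CPM at low against 39.2 ± 2.58 CPM at high glucose. The 3 mesenchymal genes examined were all detected. VIM was at 4091 ± 28.5 CPM at low against 2967 ± 210 at high glucose (SD, n = 4 each) and FN1 at 3612 ± 43.96 against 2537 ± 360.2, while ZEB1 had the higher mean at high glucose (27.0 ± 0.896 against 37.4 ± 4.81). Of the 5 epithelial markers examined, KRT8 and KRT18 were at 76.4 CPM or more in every library, EPCAM lay between 3.93 and 7.62 CPM, CDH1 was at 1.41 CPM or less and KRT19 at 0.0825 CPM or less. Among 6 genes that mark other cell types, the leukocyte gene PTPRC was at 0.178 CPM or less, VWF at 1.53 or less, PECAM1 between 0.911 and 2.84 and CD68 between 9.38 and 14.3 CPM. The fibroblast genes COL1A1 (2145 ± 98.2 and 861 ± 74.8 CPM, low and high glucose) and PDGFRB (1456 ± 16.8 and 766 ± 24.2 CPM) had lower values at high glucose. Summed over these 6 genes, the level was 3464 to 3736 CPM at low against 1503 to 1689 CPM at high glucose, and the part of cell state in the results given here was not tested. COL1A1 and PDGFRB made up most of these sums. All libraries come from the same established line, so these levels do not show that other cell types were present. In bulk RNA, fewer cells with a transcript and less of it per cell cannot be told apart.

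Most of the ribosome biogenesis genes were more abundant at high glucose. Of the 45, 36 (80%) rose at an adjusted p under 0.05, none fell, and 9 did not pass the test, where 22% of all 21059 genes were called higher and 24.8% lower (limma on log2(CPM + 1), Benjamini-Hochberg adjustment over all genes). At an unadjusted p under 0.05, 38 were higher and 1, POLR1A, was lower. The share of all genes at that unadjusted threshold is not given here, so these and later unadjusted counts stand without a background. A nearer background is the 11297 genes with a mean of at least 5 CPM, since 44 of the 45 were that abundant: 33.6% of them were called higher and 33.3% lower. In the same 36 genes all 4 high glucose libraries lay above all 4 low glucose libraries, which 32.5% of the genes of at least 5 CPM did, and in the other 9 the groups overlapped. The median change over the 45 genes was 0.44 on the log2 scale, with a range from -0.21 to 0.94, beside a median of -0.01 over all genes of at least 5 CPM. The changes were moderate in size: 17 genes changed by 0.5 or more and none by more than 1. Summed over the 45 genes, the level was 4734 ± 29.1 CPM at low against 6355 ± 162 CPM at high glucose (SD, n = 4).

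**Figure D1:**
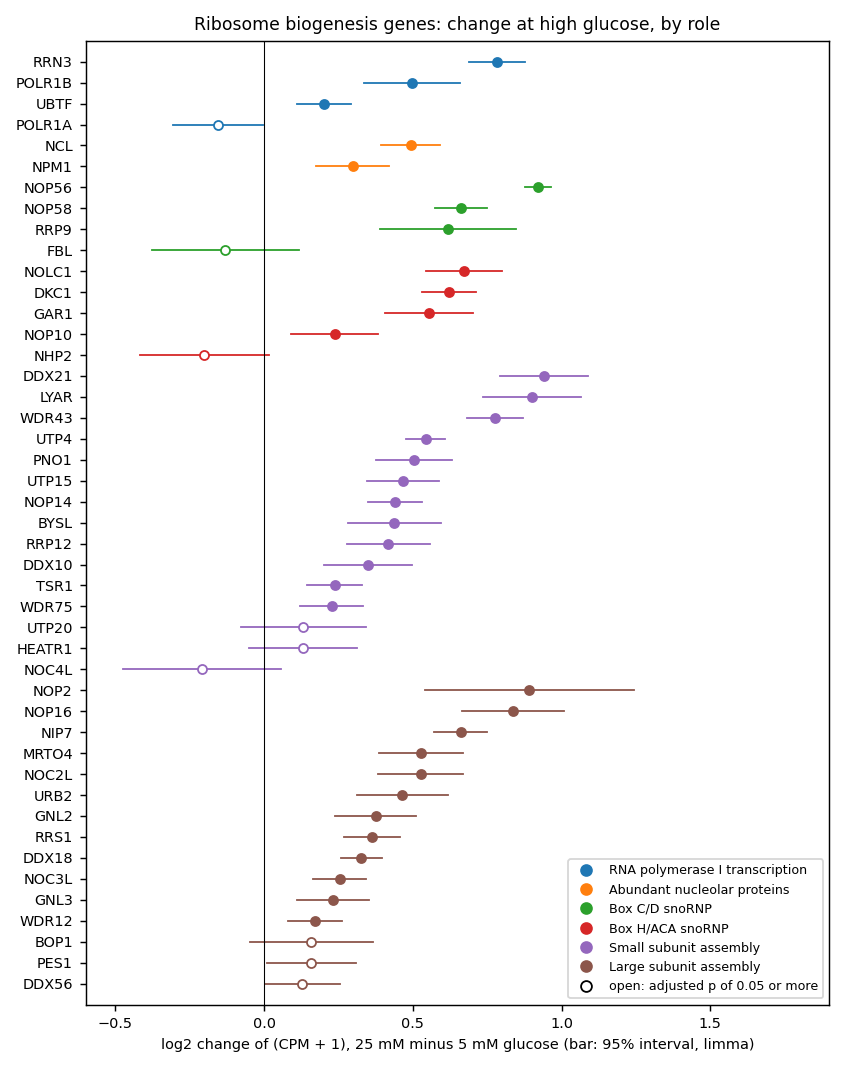
Log2 change of (CPM + 1) between 25 mM and 5 mM glucose (x axis) for each of the 45 genes (y axis, grouped by role), with the 95% interval from limma as a bar. Filled points passed an adjusted p of 0.05 and open points did not. All 36 filled points lie to the right of 0, between 0.17 and 0.94, and the 9 open ones lie between -0.21 and 0.16.

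The promoter sequences of these genes were not used to choose them and were searched for 4 motifs. RefSeq (GRCh38.p14) gave promoter windows, from 250 bases before to 50 bases after a transcription start, for 38 of the 45 genes. The letters CACGTG, the E-box bound by MYC with its partner MAX and by several related factors, stood in the windows of 18 of the 38 genes (47.4%). They stood in those of 13.1% of the 8816 genes of at least 5 CPM with a window and of 8.77% of all 27305 genes with one. CACGTG is its own reverse complement, so both strands were searched at once. Among genes that rose, 15 of 30 held it, and among those that did not pass the test, 3 of 8 (FBL, PES1 and UTP20) did. A match is a description of the letters and not evidence of binding. The windows below surround the E-box (capitals) in 8 genes that rose, among them DDX21 and LYAR, which were among the genes with the largest changes, and in FBL, which did not pass the test. They run 5' to 3' on the strand of the gene. The position is that of the first letter of the E-box relative to the transcription start of its promoter window, negative before it. DDX21, LYAR, GAR1 and GNL3 had windows at different starts, and only the window of the more downstream start held the E-box.
DDX21 (chr10:68956604-68956633, plus strand, position -31): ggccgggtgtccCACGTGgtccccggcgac
LYAR (chr4:4290068-4290097, minus strand, position -64): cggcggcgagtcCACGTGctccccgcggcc
WDR43 (chr2:28894658-28894687, plus strand, position 3): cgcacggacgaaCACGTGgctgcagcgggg
RRP9 (chr3:51941892-51941921, minus strand, position -5): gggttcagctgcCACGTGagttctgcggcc
GAR1 (chr4:109815781-109815810, plus strand, position 31): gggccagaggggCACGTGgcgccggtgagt
UTP4 (chr16:69132621-69132650, plus strand, position -16): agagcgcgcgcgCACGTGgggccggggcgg
PNO1 (chr2:68157885-68157914, plus strand, position 9): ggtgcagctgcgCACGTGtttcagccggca
NOP10 (chr15:34343130-34343159, minus strand, position -11): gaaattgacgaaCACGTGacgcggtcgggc
FBL (chr19:39846356-39846385, minus strand, position 6): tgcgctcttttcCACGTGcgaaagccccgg

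NOP10 held another E-box at position -170. The other genes with an E-box were BYSL, GNL2, GNL3, MRTO4, NOC3L and NOP14, all of which rose, NOP2 (position 35), which also rose, and PES1 and UTP20, which did not pass the test. The other 3 motifs searched on both strands gave smaller differences from the genes of at least 5 CPM. The ETS core CCGGAAG was in 36.8% of the 38 genes and in 24.1% of that background, the NRF1 core GCATGCG in 5.26% and 8.05%, and the GC box GGGCGG in 73.7% and 78.9%. In the windows of 133 further ribosome biogenesis genes, described at the end, the E-box was in 24.1% and the ETS core in 45.9%.

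RNA polymerase I transcription was represented by 4 genes, of which 3 rose, with a median change of 0.35. RRN3 (chr16:15060022-15094335), which carries the growth-regulated initiation factor TIF-IA and recruits the polymerase to ribosomal DNA, stood at 66.2, 68.3, 68.9 and 66.3 CPM in the low glucose libraries 1 to 4 and at 126, 111, 114 and 116 CPM in the high glucose libraries. The groups were far apart, and the change was 0.78 ± 0.04 (log2, SE; adjusted p = 8.67e-06), a ratio of means of 1.73. Of the sequence of RRN3, 31.6% was shared with other genes, among them its partial copies, so that reads could be split between them. POLR1B (chr2:112542036-112579818), the second largest subunit of the polymerase, measured 24.6, 26.7, 24.8 and 25.5 CPM at low against 31.6, 39.1, 38.3 and 36.4 CPM at high glucose. It rose by 0.50 ± 0.07 (adjusted p = 8.30e-04), with high glucose replicate 1 the lowest of its group. UBTF, the upstream binding factor that keeps ribosomal DNA repeats open, had 82.7, 79.3, 78.6 and 80.1 CPM at low against 91.6, 87.0, 98.6 and 92.5 CPM at high glucose, a smaller rise of 0.20 ± 0.04 (adjusted p = 0.00415). POLR1A, which encodes the catalytic subunit, did not pass the test. Its values were 111, 114, 115 and 114 CPM at low against 88.9, 105, 104 and 111 CPM at high glucose, a difference of -0.15 ± 0.06 (adjusted p = 0.0905) that passed the test in the lower direction under 6 of 16 alternatives. Among these, it was -0.28 with quantile normalization (adjusted p = 0.00805), -0.17 with the length trend removed (adjusted p = 0.00103), -0.19 without high glucose replicate 4 (adjusted p = 0.0446) and -0.09 without high glucose replicate 1 (adjusted p = 0.0339).

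The abundant nucleolar proteins both rose. Nucleolin (NCL), which binds nascent ribosomal RNA and nucleolar chromatin, was at 803, 817, 829 and 836 CPM in the low and 1117, 1100.1, 1200.2 and 1210.2 CPM in the high glucose libraries. Its change was 0.49 ± 0.04 (adjusted p = 8.13e-05). Nucleophosmin (NPM1), a chaperone that gives the granular part of the nucleolus its structure, was at 1524, 1451, 1465 and 1447 CPM at low against 1924, 1687, 1798 and 1836 CPM at high glucose. It rose by 0.30 ± 0.05 (adjusted p = 0.00278). Per kilobase of transcript, NPM1 was the most abundant of the 45 genes (1115 and 1372 CPM per kb, low and high glucose), followed by NCL (209 and 295 CPM per kb). NPM1 has many processed copies in the genome, and 74.0% of its sequence was shared with other genes, so its level is uncertain.

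Of the 4 box C/D snoRNP genes among the 45, 3 rose and the methyltransferase did not. SNU13, a further protein of the particle, was counted with the small subunit factors of the wider list described at the end. It rose by 0.22 (93.0 ± 3.88 to 109 ± 10.8 CPM, adjusted p = 0.0380). NOP56 (chr20:2652632-2658393), a scaffold protein of the particle, had the smallest adjusted p of the 45 genes. It stood at 189.6, 188, 186 and 187 CPM in the low and 365, 349, 353 and 358 CPM in the high glucose libraries, and rose by 0.92 ± 0.02 (adjusted p = 3.61e-07). The ratio of means was 1.898, and the spread within each group was small beside that difference. Its paralog NOP58, the other scaffold of the particle, went from 56.2, 59.5, 59.8 and 57.3 CPM to 89.9, 88.9, 93.8 and 98.2 CPM, a rise of 0.66 ± 0.04 (adjusted p = 1.27e-05). RRP9, which marks the snoRNP needed for the earliest cleavages of the precursor, was less abundant (11.4 ± 0.739 CPM at low, 18.2 ± 2.52 at high glucose) and rose by 0.62 ± 0.10 (adjusted p = 0.00161). Fibrillarin (FBL, chr19:39834458-39846379), the methyltransferase of the same particle, measured 44.01, 40.1, 41.4 and 38.7 CPM at low against 46.0, 35.4, 36.95 and 32.4 CPM at high glucose. High glucose replicate 1 was above all low glucose libraries and the other 3 below them, and the difference was -0.13 ± 0.10 (adjusted p = 0.362). Without that library it was -0.23 (adjusted p = 0.0219), and FBL passed the test in only that 1 of 16 alternatives. With the length trend removed the difference was -0.05 (adjusted p = 0.52). The ratio of NOP56 to FBL, in CPM and chosen after the values were seen, lay between 4.31 and 4.83 in the low and between 7.93 and 11.1 in the high glucose libraries, and that of NOP58 to FBL between 1.28 and 1.49 and between 1.95 and 3.04.

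The box H/ACA group, its core proteins together with NOLC1, showed the same kind of split, with 4 of 5 genes higher. NOLC1, a shuttling chaperone of snoRNPs, stood at 100.5, 99.5, 95.2 and 96.6 CPM at low against 146, 149.8, 159.8 and 173 CPM at high glucose and rose by 0.67 ± 0.05 (adjusted p = 6.04e-05). DKC1 (chrX:154762864-154777689), the pseudouridine synthase that is also part of telomerase, measured 129, 129, 136 and 131 CPM at low against 208, 188, 209 and 204.5 CPM at high glucose, a rise of 0.62 ± 0.04 (adjusted p = 1.81e-05). GAR1, a core protein of the particle, rose by 0.55 (20.6 ± 0.712 to 30.8 ± 2.69 CPM), and NOP10, the smallest core protein, by 0.24 (83.0 ± 2.91 to 98.3 ± 8.86 CPM, adjusted p = 0.0176). NHP2, the remaining core protein, was at 64.2, 69.99, 68.3 and 66.6 CPM at low against 71.1, 56.7, 53.5 and 53.7 CPM at high glucose. As with FBL, replicate 1 of the high glucose group was the highest library and the other 3 were below all of the low glucose group. The difference over all libraries was -0.20 ± 0.09 (adjusted p = 0.119). Without high glucose replicate 1 it was -0.29 (adjusted p = 9.04e-04), 1 of 4 alternatives, out of 16, in which NHP2 passed the test in the lower direction. With the length trend removed it was -0.11 (adjusted p = 0.0842). The ratio of DKC1 to NHP2 was 1.84 to 2.01 in the low and 2.92 to 3.90 in the high glucose libraries, also chosen after the values were seen. Of the exons of NHP2, 48.2% overlap the gene RMND5B on the opposite strand, which fell (38.3 ± 1.04 to 25.3 ± 0.737 CPM, log2 change -0.58, adjusted p = 8.67e-06). Of the sequence of NHP2, 23.3% was shared with other genes. Whether the counting used the strand is not established, so the level of NHP2 is uncertain.

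Of the 15 small subunit assembly factors, 12 rose and none fell (12 and 0 at an unadjusted p under 0.05), with a median change of 0.44. DDX21 (chr10:68956170-68985068), a helicase that links RNA polymerase I transcription to processing of its product, had the largest change of the 45 genes on the log2(CPM + 1) scale. Its values were 148, 146, 147 and 133 CPM in the low and 249.6, 272, 285 and 300.3 CPM in the high glucose libraries, a rise of 0.94 ± 0.06 (adjusted p = 2.66e-05). LYAR, a nucleolar protein of early ribosomal RNA processing, went from 12.8, 12.2, 13.2 and 12.5 CPM to 25.9, 21.4, 26.7 and 24.4 CPM and rose by 0.90 ± 0.07 (adjusted p = 5.33e-05). The order of the largest changes is not firm: the ratio of means was 1.94 for LYAR and 1.93 for DDX21, the log2 change of LYAR was above that of DDX21 with quantile normalization (0.96 against 0.86), and without high glucose replicate 1 that of NOP2 was (1.005 against 0.989). In both DDX21 and LYAR the lowest high glucose library was far above the highest low glucose library. The subcomplex of the processome that binds the precursor first was represented by 5 genes. WDR43 (0.78), UTP4 (0.54), UTP15 (0.47) and WDR75 (0.23) rose, the last from 55.7 ± 2.46 to 65.4 ± 3.30 CPM, while HEATR1 was at 113 ± 4.02 and 124 ± 12.98 CPM (0.13, adjusted p = 0.217). Of the genes that act later in the particle, PNO1, an RNA-binding factor of its platform, rose by 0.50, the processome protein NOP14 by 0.44, BYSL, which helps the particle mature, by 0.44, the export factor RRP12 by 0.42, the helicase DDX10 by 0.35 and TSR1, a GTPase-like factor of late maturation, by 0.24. UTP20, a large scaffold protein, was at 47.3 ± 1.32 and 52.3 ± 6.57 CPM (0.13, adjusted p = 0.280). NOC4L, the partner of NOP14, was the least abundant of the 45 genes and had 5.31 ± 0.491 and 4.49 ± 0.709 CPM (-0.21, adjusted p = 0.178). Exons of HEATR1, TSR1 and NOP14 overlap genes on the opposite strand for 24.8%, 27.0% and 20.6% of their length, and the partner LGALS8 of HEATR1 rose (log2 change 0.49, adjusted p = 0.0245) while SRR, opposite TSR1, fell (-0.76, adjusted p = 4.003e-05). In HEATR1 and UTP20, high glucose replicate 1 was below all low glucose libraries and replicates 2 to 4 were above them. Without it both passed the test, with changes of 0.21 (adjusted p = 0.00222) and 0.22 (adjusted p = 0.00289). Each passed in only that 1 of 16 alternatives. With the length trend removed the changes were 0.09 (adjusted p = 0.0619) and 0.10 (adjusted p = 0.0939).

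Of the 15 large subunit assembly factors, 12 rose and none fell (14 and 0 at an unadjusted p under 0.05), with a median change of 0.36. NOP2 (chr12:6556871-6568291), a ribosomal RNA methyltransferase long used as a marker of proliferation, measured 18.5, 20.5, 18.4 and 15.1 CPM at low against 26.9, 39.3, 32.2 and 40.7 CPM at high glucose. The groups did not overlap, but the high glucose libraries differed among themselves, and the change was 0.89 ± 0.15 (adjusted p = 0.00219). The sequence of NOP2 is shared for 96.2% with AC006064.6, an overlapping gene on the same strand listed at 2.46 ± 2.32 and 6.89 ± 4.51 CPM (log2 change 1.16, adjusted p = 0.222), so reads could be split between these entries. NOP16, a factor of early large subunit particles, went from 32.6, 33.6, 39.5 and 35.5 CPM to 70.3, 62.3, 62.5 and 59.8 CPM, a rise of 0.84 ± 0.07 (adjusted p = 9.00e-05). Of its exons, 24.5% overlap ARL10 on the opposite strand, which fell (22.1 ± 2.41 to 12.2 ± 3.33 CPM, log2 change -0.83, adjusted p = 0.00694). Next in size were NIP7 (0.66), which binds early precursors, MRTO4 (0.53), a placeholder for the ribosomal stalk protein, NOC2L (0.53) of the nucleolar complex family and URB2 (0.46). Smaller rises were found for the GTPases GNL2 (0.38) and GNL3 (0.23), for RRS1 (0.36), which helps place a ribosomal RNA of its own polymerase, for the helicase DDX18 (0.33), for NOC3L (0.25) and for WDR12 (0.17). Of the sequence of NOC2L, 29.6% was shared with other genes, and 13.5% of its exons overlap SAMD11 on the opposite strand. The shared part was 17.7% for MRTO4, 16.1% for DDX18 and 17.3% for DDX10 of the small subunit group. Reads of these genes could also be split.

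WDR12 forms a complex with PES1 and BOP1 that is required for cleavage of the large subunit precursor, and only WDR12 of the complex passed the test. It stood at 49.4 ± 1.26 CPM at low against 55.9 ± 2.72 CPM at high glucose (adjusted p = 0.00838), PES1 at 84.5 ± 2.68 and 94.7 ± 8.80 CPM (0.16, adjusted p = 0.0808) and BOP1 at 34.4 ± 1.26 and 38.8 ± 4.87 CPM (0.16, adjusted p = 0.187). The 95% intervals of the last 2 changes, 0.01 to 0.31 and -0.05 to 0.37, include that of WDR12 (0.08 to 0.26), so a difference between the 3 genes was not shown. The helicase DDX56 was at 103 ± 1.58 and 113 ± 8.84 CPM (0.13, adjusted p = 0.0879). Of the sequence of BOP1, 84.1% was shared with another gene in GRCh37, so its level is uncertain. In PES1 and DDX56, high glucose replicate 4 was the library nearest to the low glucose group. In BOP1 that library was below all low glucose libraries (32.4 CPM against 33.0 to 35.7), and the other high glucose libraries were above them. Without high glucose replicate 4 the changes of PES1, DDX56 and BOP1 were 0.19 (adjusted p = 0.0495), 0.17 (adjusted p = 0.0175) and 0.24 (adjusted p = 0.0134). Without high glucose replicate 1, the highest library in all 3 genes, they were 0.10 (adjusted p = 0.046), 0.08 (adjusted p = 0.107) and 0.10 (adjusted p = 0.359). Over 16 alternatives, PES1 passed the test in 7, DDX56 in 4 and BOP1 in 2.

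**Figure D2:**
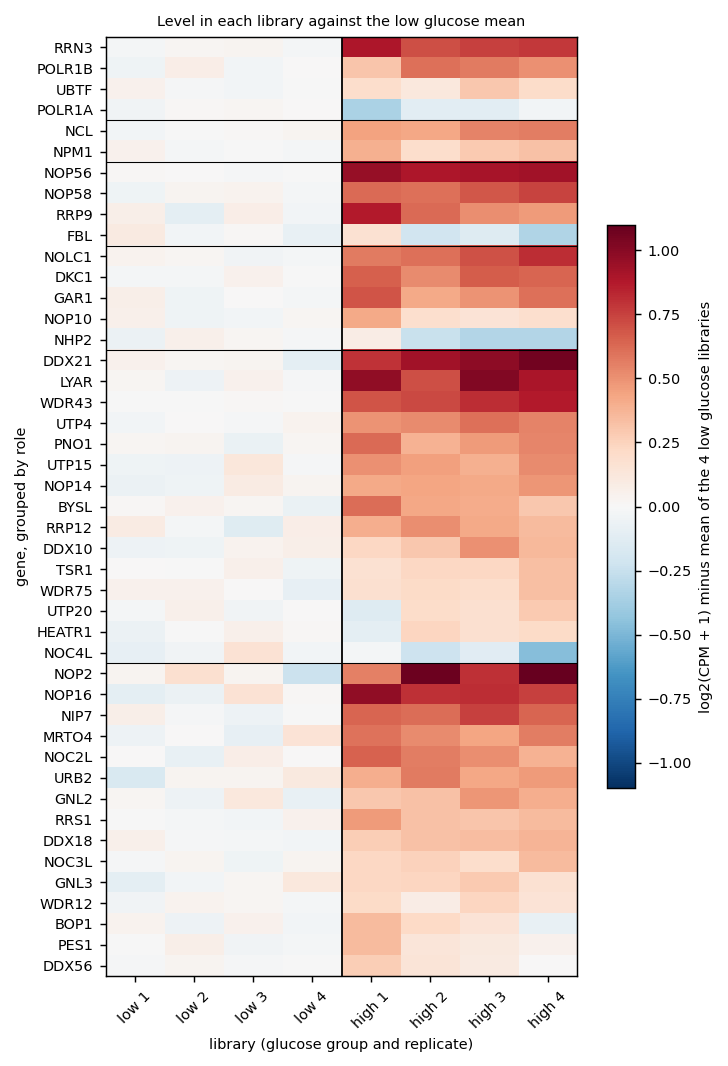
Log2(CPM + 1) of each of the 45 genes (rows, grouped by role) in each library (columns) minus the mean of the 4 low glucose libraries of that gene. Red marks higher and blue lower values. The 4 high glucose columns are red for most genes, and POLR1A, FBL, NHP2 and NOC4L have mostly blue or pale cells there. Rows with small changes, such as DDX56, HEATR1, UTP20, PES1, BOP1 and WDR12, are also partly pale.

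The rise was seen in each high glucose library. Relative to the mean of the low glucose group, the median over the 45 genes was 0.41, 0.42, 0.42 and 0.38 (log2) in high glucose replicates 1 to 4. Over all genes of at least 5 CPM the median in these libraries was 0.011, -0.008, -0.006 and -0.014. In the low glucose libraries the median over the 45 genes lay between -0.005 and 0.02. Several of the genes that did not pass the test had their outlying value in high glucose replicate 1. The deviation of that library from the other 3 of its group followed transcript length, from high values in the short transcripts FBL (1125 bases) and NHP2 (780 bases) to low values in the long ones POLR1A (12480 bases), UTP20 (9031 bases) and HEATR1 (8459 bases), with a Spearman correlation of -0.74 across the 45 genes and of -0.65 across 11271 genes of at least 5 CPM. In high glucose replicates 2, 3 and 4 the correlation across the 45 genes was 0.365, 0.327 and 0.525, and with replicate 1 left out of their comparison it was -0.13, -0.25 and 0.27. These correlations are across genes, which are not independent. The change between the glucose groups was not ordered by length (Spearman -0.07 over all libraries and 0.02 without high glucose replicate 1, 45 genes). Without that library, 39 of the 45 genes rose, 3 fell and the median was 0.42, beside 4802 called higher and 5354 lower among all 21059 genes. With the trend along length removed from every library, 38 rose and 1 fell, beside 4720 called higher and 5270 lower among 14309 genes. The cause of the length pattern was not tested.

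**Figure D3:**
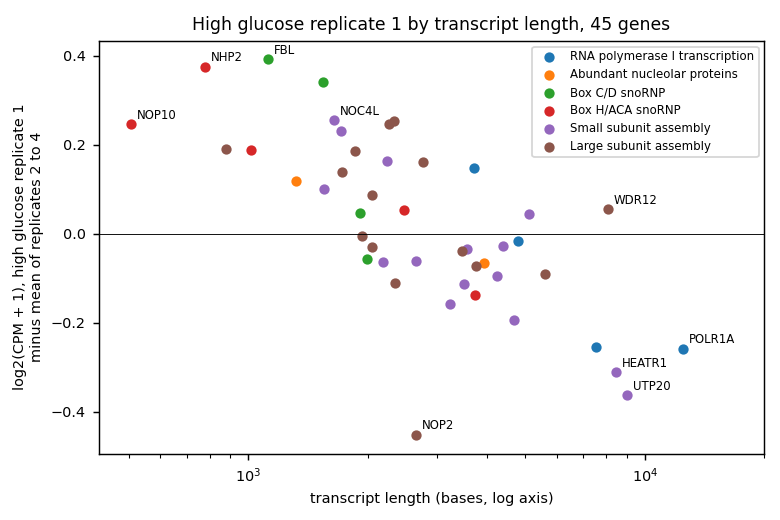
Deviation of high glucose replicate 1 from the mean of high glucose replicates 2 to 4 in log2(CPM + 1) (y axis) against transcript length in bases on a log axis (x axis), 1 point for each of the 45 genes, colored by role. FBL and NHP2 are the highest points and UTP20, HEATR1 and POLR1A among the lowest, while NOP2 is lowest of all at a middle length.

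Genes of the wider pathway were also more often called higher than lower. A list of 155 other ribosome biogenesis genes, all found in the table, held 92 that rose, 14 that fell and 49 that did not pass the test, with a median change of 0.25, beside 33.6% called higher and 33.3% lower among genes of at least 5 CPM. By class, 10 of 17 other RNA polymerase I factors rose and 2 fell (median 0.34), 34 of 53 small subunit factors rose and 3 fell (0.25), and 35 of 54 large subunit factors rose and 4 fell (0.26). Of 14 snoRNP assembly factors 7 rose and 2 fell (0.25). The 17 genes of the RNA exosome and ribosomal RNA trimming had a median of -0.02. Of these, 6 were higher (35.3%), near the background share, and 3 were lower, a smaller share than in the background. Their median was 0.10 over the 16 of them with a mean of at least 1 CPM, and 0.14 over these 16 with the length trend removed.

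The largest rises on that list were those of POLR1G, SBDS, DDX24 and TAF9. POLR1G (listed as CD3EAP), a subunit of RNA polymerase I, was at 5.12, 3.27, 5.06 and 3.503 CPM at low against 11.2, 10.2, 10.4 and 11.9 CPM at high glucose, a rise of 1.20 ± 0.14 (adjusted p = 3.88e-04). SBDS, which readies the large subunit for translation and is mutated in Shwachman-Diamond syndrome, went from 84.4, 77.7, 79.9 and 82.5 CPM to 175, 143, 151 and 161 CPM, a rise of 0.95 ± 0.06 (adjusted p = 2.64e-05). The nucleolar helicase DDX24 rose by 0.88 (204 ± 2.72 to 377 ± 20.2 CPM) and TAF9, a transcription factor subunit linked to snoRNP assembly, by 0.84 (47.2 ± 2.17 to 85.0 ± 3.57 CPM). Among genes that fell, NOP53, a large subunit factor that recruits the exosome, had the largest change, from 33.2, 34.2, 33.4 and 33.9 CPM to 27.0, 23.4, 21.3 and 24.5 CPM (-0.47 ± 0.07, adjusted p = 8.84e-04). It was followed by WDR18 (-0.42), which acts in late large subunit maturation, TSR3 (-0.41), which modifies the ribosomal RNA of the small subunit, and the exosome subunit EXOSC8 (-0.37). The calls of these 3 were weak (adjusted p = 0.0265, 0.0315 and 0.0205) and all 3 were lost with quantile normalization and with the replicate number as a block. The call of WDR18 was lost under 8 of 16 alternatives, among them the omission of each low glucose library and of high glucose replicates 2 and 3. That of TSR3 was lost under 7, among them the omission of low glucose replicates 2, 3 and 4 and of high glucose replicates 3 and 4, and that of EXOSC8 under 3, the last without low glucose replicate 1.

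The proteins that this machinery assembles with ribosomal RNA were encoded by transcripts of lower level at high glucose. Of 77 cytosolic ribosomal protein genes, taken by symbol, none rose and 51 fell (0 and 55 at an unadjusted p under 0.05), beside 33.3% called lower among genes of at least 5 CPM, with a median change of -0.39 and a range from -0.79 to 0.13. In 49 of them all 4 high glucose libraries lay below all 4 low glucose libraries, which 32.5% of the genes of at least 5 CPM did. Ribosomal protein transcripts are short, and high glucose replicate 1 had raised values of short transcripts. Without it 70 of the 77 fell (median -0.48), and with the length trend removed 58 fell and 2 rose (median -0.33). Among all genes, 5354 of 21059 were called lower without that library and 5270 of 14309 with the trend removed. The opposite directions of the 45 biogenesis genes and of the ribosomal protein genes were thus present with and without that library.

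**Figure D4:**
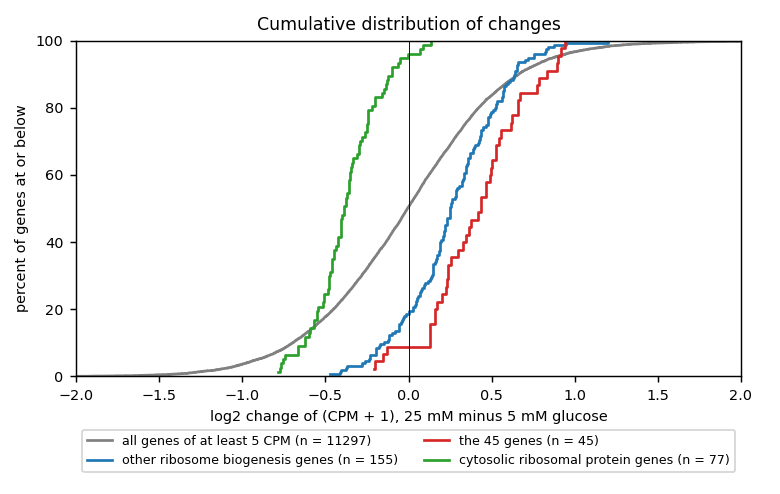
Cumulative distribution of the log2 change of (CPM + 1) between 25 mM and 5 mM glucose (x axis; percent of genes at or below a change, y axis) for the 45 genes, the 155 other ribosome biogenesis genes, 77 cytosolic ribosomal protein genes and all 11297 genes of at least 5 CPM. The medians are 0.44, 0.25, -0.39 and -0.01 in that order.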

How the data were processed

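RNA from MDA-MB-157 cells was sequenced in 8 libraries, 4 at low and 4 at high glucose, grouped by their labels. The authors deposited 1 table of CPM values scaled with the TMM factors of edgeR. Per the labels the build is hg38, while the study's methods, written first for tumors, name hg19, TopHat, Ensembl and stranded libraries, so the build, the counting tool and its use of strand are not established. Only 72.7% to 74.0% of low values were whole reads (tolerance 0.01), so reads were not recovered and depth was estimated from the step of 1 read. The floor of 3 reads reflects counting error alone, as the libraries carry no molecular identifiers.

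Of 21077 lines, 18 pseudoautosomal copies identical to others were dropped, leaving 21059 genes. Log2(CPM + 1) was compared between groups with limma 3.58.1 in R 4.3.3 (lmFit, eBayes with trend, 2-sided, no covariate), with Benjamini-Hochberg adjustment over all genes and a threshold of 0.05. Fold changes on that scale understate those of low genes. Intervals are 95%. The steps were tested on simulated data.

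The 45 genes and the other lists were chosen with earlier results of these data known. The change is given for all 45 genes. Values by library are given for up to 2 called genes with the largest change per role and for NCL, NPM1, FBL, POLR1A, UBTF and RRN3. From the other 155 genes, the 4 largest rises and falls are named among called genes with a mean of 5 CPM or more whose groups did not overlap. Coordinates and promoters came from RefSeq (GRCh38.p14) and transcript lengths, shared sequence (31-base words) and antisense overlap from GENCODE 44 on GRCh37, by symbol or identifier. Alternatives were a pseudocount of 0.1, minimum means of 1 and 5 CPM, 3 other scalings, a replicate block, removal of the length trend (spline with 4 degrees of freedom) and leaving out each library.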

Additional observations from a re-analysis of the deposited data

Results flagged for a closer look

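Each of the 45 genes and the 8 further genes named was examined for a library far from the other 3 of its group. Among 106 groups 4 were flagged, where chance flags about 1 in 20 groups, or 5.3. High glucose replicate 1 stood apart in NOP10, at 111.5 CPM against 92.4 to 94.7 CPM in the other 3. High glucose replicate 4 stood apart in WDR75, at 70.3 CPM against 63.2 to 64.4. Low glucose replicate 4 was low in DDX21, at 132.9 CPM against 145.9 to 148.4. Low glucose replicate 3 was low in PNO1, at 34.33 CPM against 36.61 to 36.9. In all 4 genes the glucose groups did not overlap with these libraries included.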

How the results depend on the processing

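Of the 36 genes that rose, 33 passed the test under all 16 alternatives. The exceptions were UBTF (0.09, adjusted p = 0.0859) and NOP10 (0.13, adjusted p = 0.135) with quantile normalization, and WDR12 with quantile normalization (0.10, adjusted p = 0.0596) and with the length trend removed. Between 33 and 39 of the 45 genes rose. Over all genes, those called higher numbered from 4043 of 11297 (minimum mean of 5 CPM) to 4974 of 21059 (median-of-ratios scaling). Those called lower numbered from 4077 of 11297 (minimum mean of 5 CPM) to 5354 of 21059 (without high glucose replicate 1). None fell in the analysis reported, but 2 did with a minimum mean of 1 CPM, 2 with a minimum of 5 CPM, 2 with quantile normalization, 1 with the length trend removed, and 0 to 3 when single libraries were left out (3 without high glucose replicate 1, 1 without high glucose replicate 4). The median change of 0.44 became 0.48 with median-of-ratios scaling, 0.46 with equal totals, 0.42 with quantile normalization, 0.42 with the length trend removed, and 0.42 to 0.45 when single libraries were left out. The change of HEATR1 turned from 0.13 to -0.0016 with quantile normalization. The cause of these shifts was not tested. No pairing of the libraries by replicate number was evident. Deviations of same-numbered libraries correlated at 0.069, -0.028, 0.014 and -0.040, and not every library correlated best with its own number. With 4 libraries per group, these correlations cannot decide whether the libraries were paired. With the replicate block, 36 of the 45 genes rose, none fell, and 8921 genes were called in place of 9849.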
